A study of Mus musculus with 12 samples.

Results

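The cytosolic ribosomal protein genes of the mouse were examined for N6-methyladenosine (m6A) in testes at postnatal day 18. Members were taken by name alone: every gene symbol of the Rpl, Rplp and Rps pattern and Rpsa, without the Rps6k kinases and without symbols ending in -ps and a number. The name rule took 60 of the 65355 m6A peaks listed, in 33 of 17795 gene symbols with a peak. The list of wild-type males (WT) held 34 of these peaks in 30 genes, and the list of males lacking Alkbh5 (Alkbh5-/-, KO) held 26 in 24 genes. Both lists named 21 of the genes, the WT list alone named 9 and the KO list alone named 3. Of the 13562 protein-coding genes with a peak in either list, both lists named 11623. The WT list alone named 1034 of those and the KO list alone 905. Of the 33 symbols, 22 are named for the large and 11 for the small subunit. The rule also takes Rps19bp1, which encodes a nucleolar protein that binds Rps19 and is not a subunit of the ribosome. It is counted in the totals of the name rule, and its own folds are given in a separate paragraph. Without it the WT list named 29 genes, the KO list 23 and both lists 20.

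The study asked how the m6A map of spermatocytes changes when Alkbh5 is missing, and used MeRIP-seq, in which fragmented mRNA is pulled down with an m6A antibody and sequenced beside input libraries. Each genotype had 3 IP and 3 input libraries of whole testis, 12 in all, and the labels name no treatment or strain background and do not say which bases of Alkbh5 were deleted. The replicates are numbered in the labels, which do not say that they came from separate animals. The values used are the authors' 1 peak list per genotype, so every value below belongs to a genotype and not to a library, and no replicate error exists. In whole testis, fewer cells of a type and less RNA per cell cannot be told apart, and peaks give no transcript levels.

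Ribosomal proteins surround the ribosomal RNA in the large and the small subunit, and nearly every dividing cell makes them in large amounts from short mRNAs. Most of these mRNAs begin with a C followed by a run of pyrimidines, the terminal oligopyrimidine (TOP) tract, through which mTOR signalling controls their translation. m6A is written co-transcriptionally on mRNA, most often near the stop codon and in the 3' UTR, and Alkbh5 is one of the enzymes that remove it. In male germ cells the X chromosome is silenced during meiosis, and autosomal copies of X-linked ribosomal protein genes are known to take over there.

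As a check of the labels, 3 WT peaks and 0 KO peaks were listed for Alkbh5. Of the tissue markers, 6 of 8 germ cell genes carried a peak (Ddx4 and Kit did not), as did 4 of 4 Sertoli cell genes and 3 of 4 Leydig cell genes. Of 4 markers of haploid germ cells, 1 did (Tnp1, in the KO list alone), and of 3 blood markers 0 did. Folds and FDRs are the authors' own values per peak. The fold is the linear ratio of IP over input, and FDR is the false discovery rate, printed here as its log10. An FDR of 1e-05 or below is called strict.

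Cytosolic ribosomal protein genes carried an m6A peak less often than protein-coding genes in general and far less often than the genes of the mitochondrial ribosome. RefSeq names 89 protein-coding genes by the rule, and 32 of them, 36% (95% interval 26.8 to 46.3), had a peak in either list. Over all 21900 protein-coding genes the share was 61.9%, a difference of -26.0 percentage points (95% interval -35.2 to -15.6). Of 78 mitochondrial ribosomal protein genes (Mrpl and Mrps), which serve the separate ribosome of the mitochondrion, 67 or 85.9% had a peak, and the difference was -49.9 points (-60.9 to -35.9). Of 56 translation initiation factor genes (Eif), 40 or 71.4% had one, a difference of -35.5 points (-49.2 to -18.9). Intervals cover counting error only and treat genes or peaks as independent.

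Genes outside the ribosome whose mRNAs also carry a TOP tract lay between these groups. Of 23 such genes, 13 or 56.5% (36.8 to 74.4) had a peak, among them the elongation factors Eef1a1 and Eef2. The difference from the cytosolic ribosomal protein genes was -20.6 points (-40.6 to 1.70), an interval that includes 0, and at strict FDR it was -26.5 points (-47.0 to -5.55). At strict FDR the ribosomal protein share was 19 of 89, 21.3% (14.1 to 31.0), against 45.7% of all protein-coding genes. Many ribosomal protein genes have processed pseudogenes with nearly the same sequence, and the sources used here do not say how reads that match several copies were placed. Its part in the low share was not tested, and neither was that of transcript level or mRNA length.

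**Figure D1:**
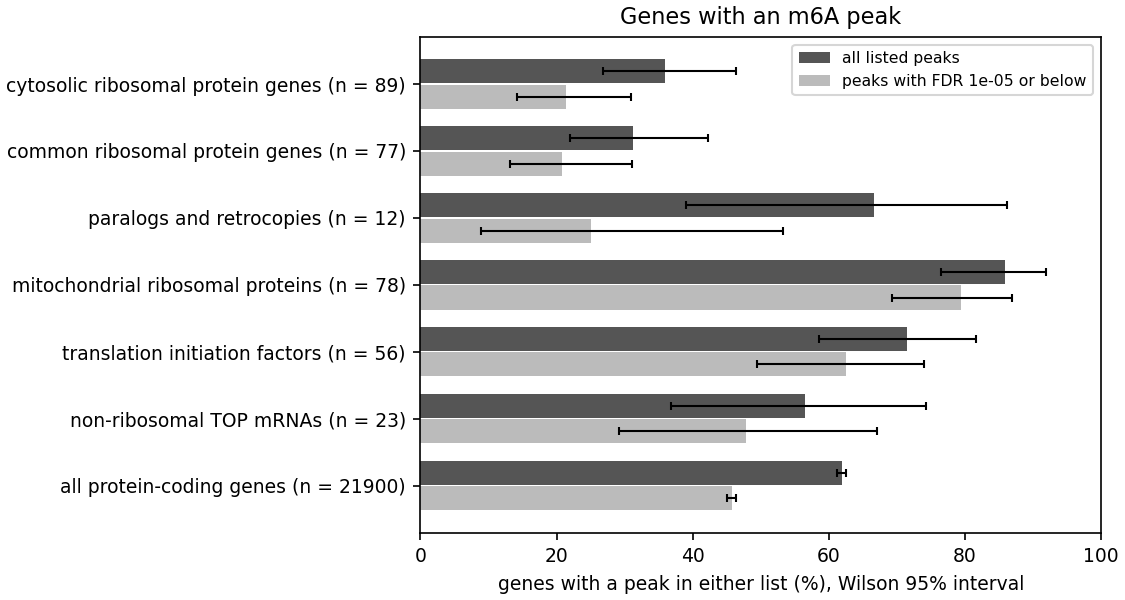
Share of the genes of each group with an m6A peak in either list, in percent, with Wilson 95% intervals as bars. Dark bars count all listed peaks and light bars peaks with an FDR of 1e-05 or below. The cytosolic ribosomal protein genes, at 36% and 21.3%, lie below the mitochondrial ribosomal protein genes, at 85.9% and 79.5%.

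The common ribosomal protein genes, meaning the 77 members other than paralogs, retrocopies and Rps19bp1, had a peak in 24 cases, 31.2% (21.9 to 42.2). This class was set by hand with the data known. Of its large-subunit genes 16 of 46 had a peak, 34.8% (22.7 to 49.2), and of its small-subunit genes 8 of 31, 25.8% (13.7 to 43.2). The difference of 8.98 points between the subunits had an interval from -12.3 to 27.8, so these counts do not separate them. None of the 4 X-linked genes of this class (Rpl10, Rpl36a, Rpl39 and Rps4x) had a peak in either list. With 4 genes, a count of 0 allows a share of up to 49.0% (upper Wilson limit). The 3 genes of the P-stalk, Rplp0, Rplp1 and Rplp2, whose proteins recruit the translation factors that use GTP, had no peak either.

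In all, 57 protein-coding members had no listed peak, 53 of them common genes. On the large subunit these were Rpl3, Rpl6, Rpl7, Rpl7a, Rpl8, Rpl9, Rpl10, Rpl11, Rpl12, Rpl13, Rpl15, Rpl19, Rpl22, Rpl23, Rpl23a, Rpl24, Rpl27, Rpl27a, Rpl31, Rpl32, Rpl35, Rpl35a, Rpl36a, Rpl37, Rpl37a, Rpl38, Rpl39 and the P-stalk genes. On the small subunit they included Rps2, Rps3a1, Rps4x, Rps9, Rps10, Rps12, Rps13, Rps14, Rps15, Rps16, Rps18, Rps19, Rps20, Rps21, Rps23, Rps25, Rps26, Rps27a and Rps29. The other 4 were the paralogs Rpl32l, Rpl39l (a copy of Rpl39 known for its expression in mouse testis), Rps27l and Rps27rt. No listed peak means no region past the authors' limit in that genotype's list, not the absence of m6A.

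Paralogs and retrocopies had peaks in 8 of 12 cases, 66.7% (39.1 to 86.2), a share 35.5 points (5.77 to 57.1) above that of the common genes. At strict FDR the shares were 25.0% and 20.8%, and the difference of 4.22 points had an interval from -14.9 to 33.4. The 12 genes include Rps4l, which RefSeq lists as a transcribed pseudogene and which is not among the 89 protein-coding names.

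The retrocopy Rpl10l carried 2 strict peaks in each list. It is an intronless autosomal copy of X-linked Rpl10 that in mouse spermatocytes is known to stand in for its silenced parent gene. Its 3' UTR peak (chromosome 12, minus strand) spanned 66283379 to 66283729 in the WT list and 66283379 to 66283846 in the KO list. The folds were 7.15 and 7.77, both with an FDR too small for the files' number format. A second peak, placed in the 5' UTR by the authors' annotation, spanned 66284051 to 66284372 in WT with a fold of 1.53 (log10 FDR -19.2) and 66283963 to 66284401 in KO with a fold of 3.05 (log10 FDR -46.2). The KO fold of this second peak was 1.99 times the WT fold, while the folds of the 3' UTR peak differed by a ratio of 1.09. In this gene, which spans only 1023 bases, the peaks covered much of the transcript, whereas Rpl10 itself had none listed.

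Rps4l, a copy related to X-linked Rps4x (chromosome 6, plus strand, noncoding exon), held 2 overlapping peaks in each list. The peak from 148355274 to 148355598 had a fold of 12.2 in WT and 7.14 in KO, and the peak from 148355265 to 148355498 had folds of 5.04 and 4.81. All 4 had a log10 FDR of -256 or below. Rps4l and Rpl10l were the only members with 2 peaks in both lists. Rpl7l1, an Rpl7-like gene, had a 3' UTR peak (chromosome 17, 46773907 to 46774385 in WT) with nearly the same fold in WT, 8.51, and in KO, 8.24, and log10 FDRs of -93.9 and -91.1.

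The other 5 copies with a peak had weak ones. Rpl37rt, a retrocopy of Rpl37, had a noncoding exon peak with a fold of 7.10 in WT and 2.62 in KO, at log10 FDRs of -3.21 and -1.65. Rpl36al, an autosomal copy of X-linked Rpl36a, had a peak in the KO list alone (chromosome 12, 69183260 to 69183436, fold 7.22, log10 FDR -1.21), over a same-strand peak that the authors assign to Dnaaf2. Rpl3l, the Rpl3 paralog known from heart and skeletal muscle, had a WT fold of 6.48 with a log10 FDR of only -0.391. Rpl22l1, the Rpl22 paralog, had a WT fold of 1.5 (log10 FDR -2.29), and Rps23rg1, a retrocopy of Rps23, a WT fold of 8.33 (log10 FDR -0.82). None of these 5 reached the strict limit in either list.

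Common large-subunit genes carried mostly low folds at very small FDRs. Rpl4, which lines the tunnel through which the new protein leaves, had a 3' UTR peak (chromosome 9, 64178277 to 64178546 in WT) with folds of 2.63 in WT and 2.50 in KO. Rpl41, the smallest ribosomal protein, had one at chromosome 10, 128548114 to 128548264, with folds of 2.57 and 2.60. Both genes had FDRs too small for the number format in each list, although the median fold over all peaks was 6.02 in WT and 6.32 in KO. Rpl29 had the longest member peaks, 1141 bases in WT and 1170 in KO (chromosome 9, 106430369 to 106431509 in WT), with folds of 2.29 and 2.71.

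Rpl5, which carries the 5S RNA into the ribosome and can bind the p53 regulator Mdm2, showed a fold of 3.07 in WT and 5.54 in KO over exactly the same span (chromosome 5, 107907159 to 107908048). Rpl36 had folds of 1.79 and 2.94 in its 3' UTR. Rpl21 had folds of 1.71 and 1.76, Rpl14 of 1.46 and 1.48, and Rpl26, which is known to bind p53 mRNA, of 1.33 and 1.38. The last of these were the lowest folds among all members, yet their log10 FDRs were -14.0 and -23.2. Rpl17, another tunnel protein, had folds of 2.78 and 2.93 with log10 FDRs of -1.07 and -0.949, which is above an FDR of 0.05.

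Among common small-subunit genes, the highest fold was that of Rps28 (chromosome 17, minus strand, 33819027 to 33819175), which lies near the mRNA exit of the subunit. Its 3' UTR peak had a fold of 12.2 in WT (log10 FDR -12.7) and 6.62 in KO (-9.22), and it lies opposite a peak of Kank3 on the other strand. Rps3, which lines the channel where mRNA enters, had 3' UTR folds of 5.18 and 2.41, the KO value above the strict limit. Rps6, the classical substrate of the S6 kinases, had folds of 2.46 and 3.06 at the very end of its 3' UTR (chromosome 4, 86854660 to 86854780 in WT). Rpsa, also known as the laminin receptor, had folds of 1.74 and 1.79 over one span (chromosome 9, 120131148 to 120131562), and a second, WT-only peak further 3' with a fold of 4.63 and a log10 FDR of -1.52.

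Rps19bp1 had the highest fold under the name rule. Its 3' UTR peak (chromosome 15, minus strand, 80260615 to 80261337 in WT) had a fold of 29.5 in WT and 17.3 in KO, with FDRs too small for the number format. Among genes that do encode ribosomal proteins or their copies, the highest folds were therefore 12.2 in WT (Rps28 and Rps4l) and 9.92 in KO (Rps7).

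**Figure D2:**
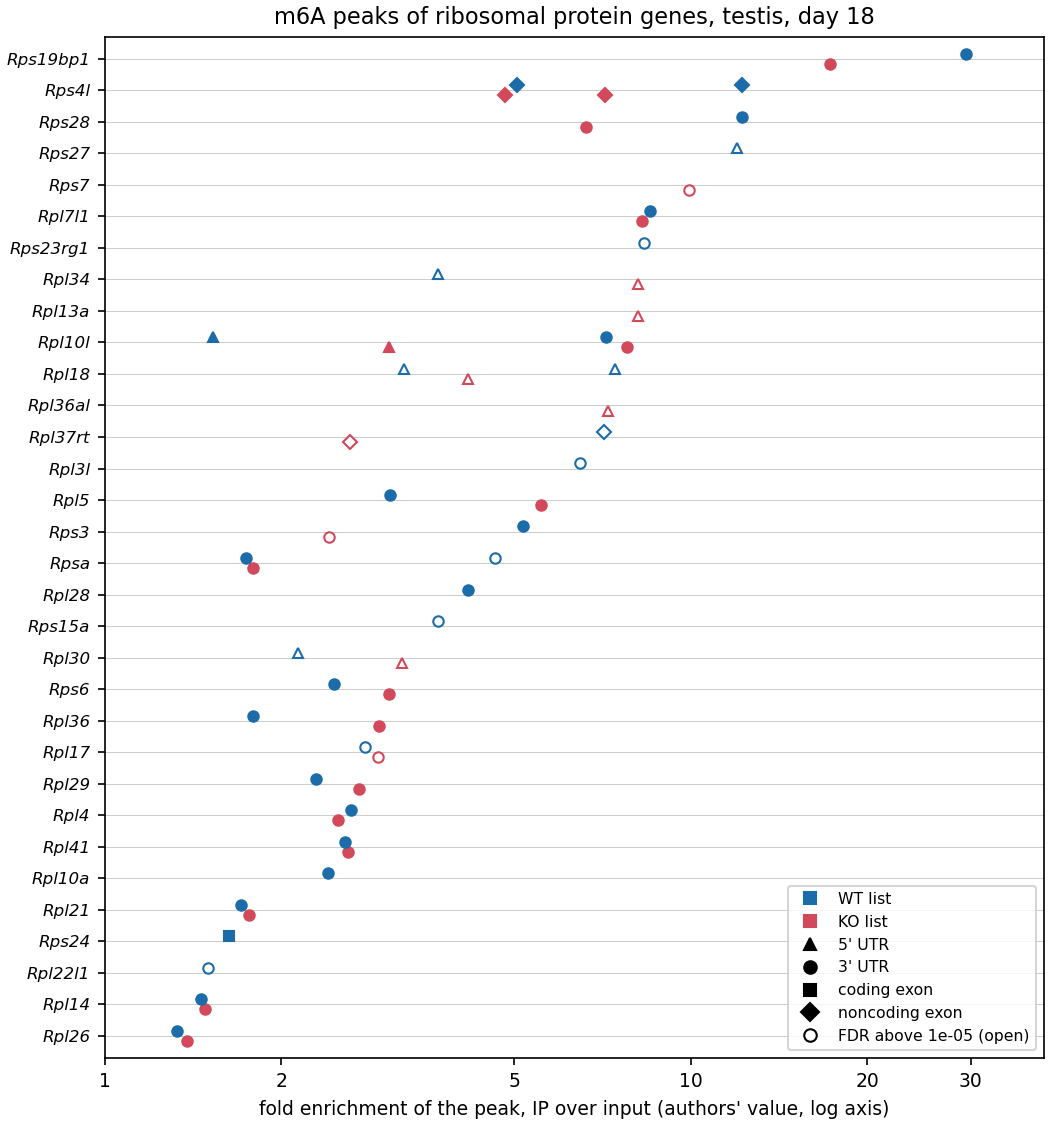
Fold enrichment (IP over input, authors' value, log axis) of the member peaks reported here, by gene, blue for the WT list and red for the KO list, with the marker shape giving the position class and open markers an FDR above 1e-05. Rps19bp1, at 29.5 and 17.3, stands above all others, and most filled markers of common genes lie below a fold of 5.

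Ribosomal protein peaks were annotated mainly to the 3' UTR and almost never to coding exons. Each peak has a single class in the authors' annotation, which does not say whether the peak also spans coding bases. In the WT list 24 of 34, 70.6% (53.8 to 83.2), were annotated to the 3' UTR, and in the KO list 17 of 26, 65.4% (46.2 to 80.6). Over all peaks the shares were 48.9% and 48.8%, so the members lay 21.7 points (4.93 to 34.3) above in WT and 16.6 points (-2.58 to 31.8) above in KO. Mitochondrial ribosomal protein peaks had like shares, 71.6% and 72.4%, with differences of -0.991 points (-19.6 to 14.9) and -7.06 points (-27.8 to 10.9). A 3' UTR share this high was thus not shown to be particular to the cytosolic ribosome.

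The coding-exon class held 1 WT member peak, in Rps24, and 0 of 26 KO peaks. Over all peaks 17.8% in WT and 19.5% in KO were of this class, differences of -14.8 points (-17.3 to -2.85) and -19.5 points (-19.9 to -6.57). Noncoding exons held 3 peaks in each list, all of Rps4l and Rpl37rt, and introns held none. The 5' UTR held 6 peaks in each list, 17.6% in WT and 23.1% in KO against 12% and 12.4% of all peaks, with differences of 5.63 points (-3.67 to 21.5) and 10.7 points (-1.40 to 29.6).

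**Figure D3:**
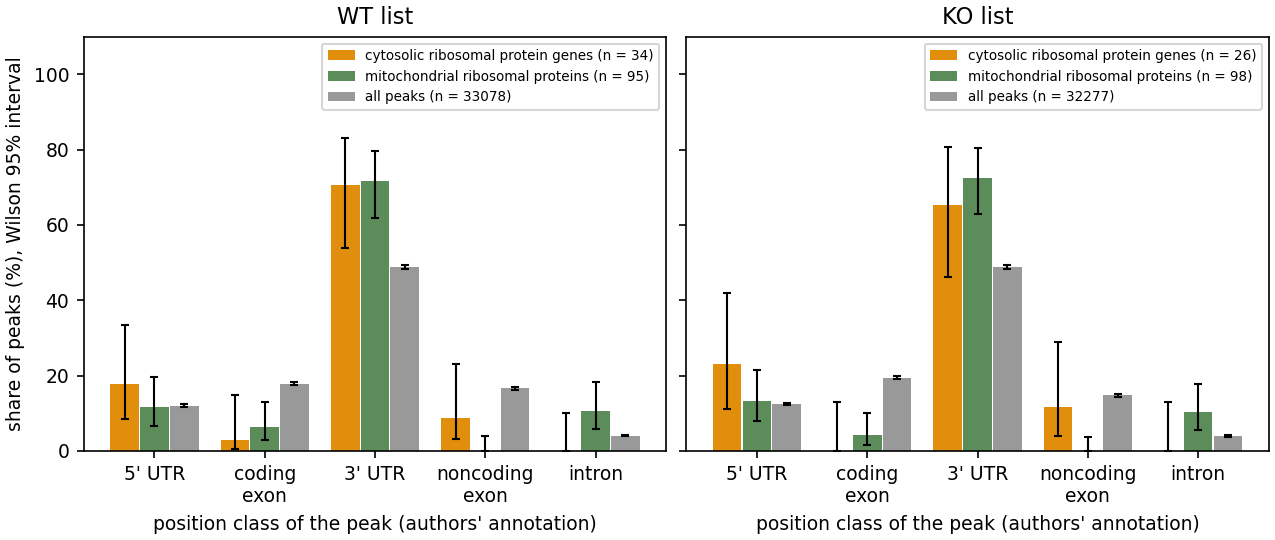
Share of peaks in each position class of the authors' annotation, in percent with Wilson 95% intervals, for the WT list (left) and the KO list (right). Orange bars are the cytosolic ribosomal protein genes, green bars the mitochondrial ribosomal proteins and grey bars all peaks. The 3' UTR bars of both ribosomal groups lie between 65.4% and 72.4% and the grey ones at 48.9% and 48.8%, while the orange coding bars are at 2.94% and 0%.

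Many of the peaks reached the annotated end of the gene. Of the 41 member peaks in a 3' UTR, 20 ended exactly at the last annotated base, and of the 12 in a 5' UTR, 8 began at the first one. Within 30 bases of the gene end lay 45.8% (27.9 to 64.9) of WT and 58.8% (36 to 78.4) of KO 3' UTR member peaks, against 24.5% and 23.0% of all 3' UTR peaks. Among mitochondrial ribosomal proteins the shares were 35.3% and 33.8%. Within 30 bases of the gene start began 5 of 6 WT 5' UTR member peaks, 83.3% (43.6 to 97.0). In KO 4 of 6 did, 66.7% (30.0 to 90.3). Over all 5' UTR peaks the shares were 44.4% in WT and 41.3% in KO, and among mitochondrial ribosomal proteins 27.3% and 46.2%. Ribosomal protein mRNAs are known for short 3' UTRs, and UTR lengths were not analysed here. The median span of the member peaks was 220.5 bases in each list, against 360 and 389 bases over all peaks, introns included.

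**Figure D4:**
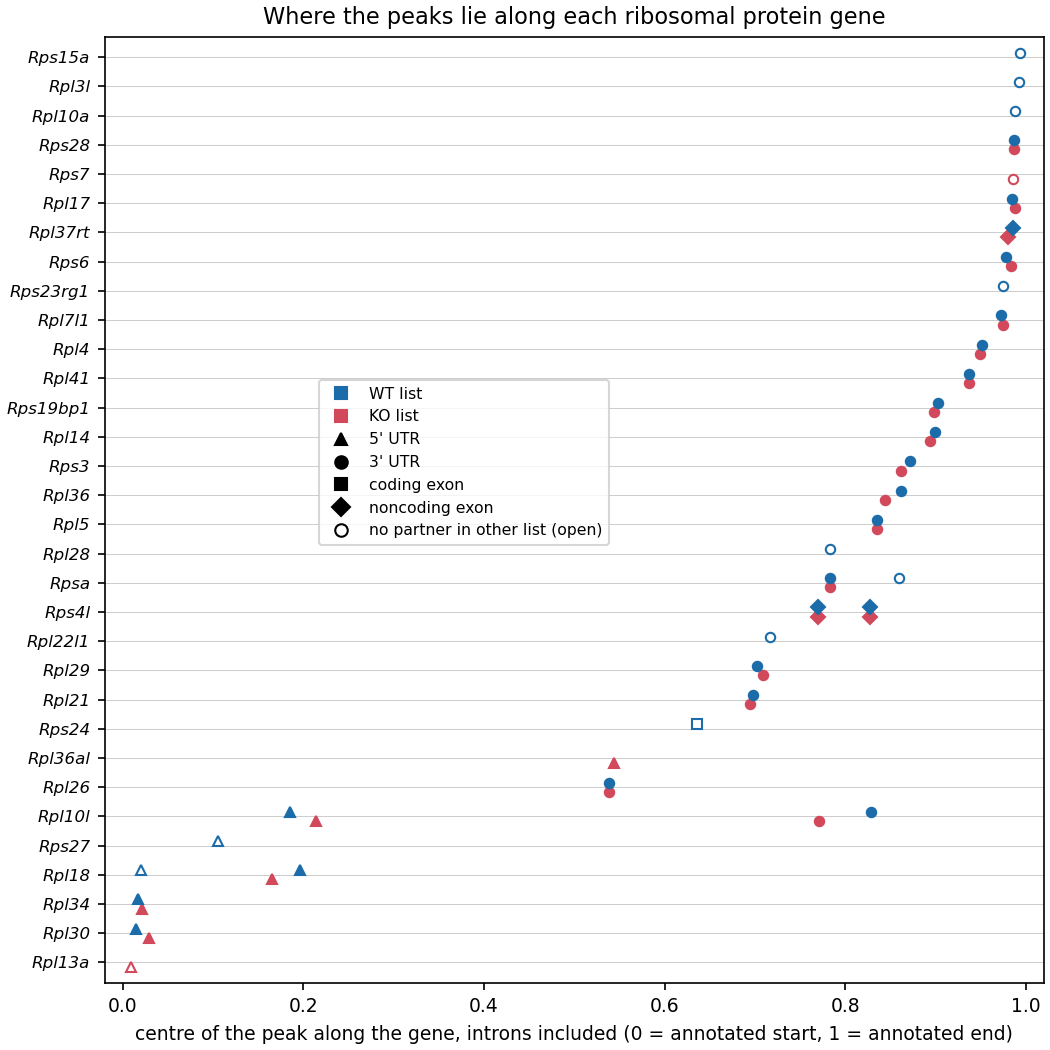
Centre of the member peaks reported here along their genes, introns included, from 0 at the annotated start to 1 at the annotated end, blue for WT and red for KO, with open markers for peaks that have no partner in the other list. Most circles (3' UTR) lie to the right of 0.5, and the triangles (5' UTR) of Rpl13a, Rpl30, Rpl34 and Rps27 lie at the left end.

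The 5' UTR peaks belonged to 7 genes: Rpl10l, Rpl13a, Rpl18, Rpl30, Rpl34, Rpl36al and Rps27. Only the 2 peaks of Rpl10l among these 12 were strict, whereas 32 of the 41 3' UTR peaks were. Over all genes, 1801 of 3974 WT and 1812 of 4010 KO peaks in a 5' UTR were strict. In a 3' UTR 9954 of 16171 WT and 9959 of 15749 KO peaks were, so the strict share was lower in the 5' UTR there too. Rps27 (small subunit) had a WT peak at chromosome 3, 90213413 to 90213651, with a fold of 12 and a log10 FDR of -2.09. Rpl34 had folds of 3.70 in WT and 8.12 in KO at its first exon (log10 FDR -0.767 and -1.53). Rpl30, whose yeast (Saccharomyces cerevisiae) counterpart represses its own splicing, had folds of 2.14 and 3.21, and lies opposite a peak of D730044K07Rik. Rpl18 had a WT peak at the gene start, 45715457 to 45715667 on chromosome 7 (fold 7.41, log10 FDR -2.19), and a further one downstream with folds of 3.24 in WT and 4.17 in KO. Rpl13a, known for a role outside the ribosome in silencing inflammatory mRNAs, had a KO peak of 61 bases with a fold of 8.12 and a log10 FDR of -1.83.

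Start sites at or near these peaks are shown because a TOP tract, where an mRNA has one, begins there. Each run is the RefSeq sequence (GRCm38.p6) from 10 bases before the start site to its base 20, on the minus strand, with the longest run of C and T in capitals.
Rps27, chr3:90213629-90213658: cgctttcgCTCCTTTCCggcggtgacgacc
Rpl34, first start, chr3:130730379-130730408: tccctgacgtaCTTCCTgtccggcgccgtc
Rpl34, second start, chr3:130730318-130730347: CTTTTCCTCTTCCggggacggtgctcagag
Rpl13a, chr7:45128726-45128755: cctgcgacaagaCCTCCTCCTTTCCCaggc
Rpl10l, chr12:66284382-66284411: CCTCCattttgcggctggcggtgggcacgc

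The runs measure 9 bases in Rps27, 6 and 13 in Rpl34, 14 in Rpl13a and 5 in Rpl10l. Counted from the start site, they begin at base -2 in Rps27, at 2 and -10 in Rpl34 and at 3 in Rpl13a. Most of the 13-base run of Rpl34 thus lies before the start site and outside the mRNA. At the first start of Rpl34 and in Rpl13a the run begins after the first base of the mRNA. The run of Rpl10l ends before the start site and so is not part of the mRNA, and its WT peak begins 29 bases inside the gene, outside the window printed. A run of 6 or more C or T, read on the gene's strand, was present in the 30-base window of 37 of 67 start sites of common ribosomal protein genes, 55.2% (43.4 to 66.5), and of 28.7% of all 32851 RefSeq start sites. It was found at 13 of 21 start sites of common genes with a peak, 61.9% (40.9 to 79.2), and at 24 of 46 of those without, 52.2% (38.1 to 65.9). The window includes 10 bases before the start site, so a run in it need not lie in the mRNA. These shares therefore do not count TOP tracts. GGAC, a frequent form of the motif at which m6A is written, occurred on the gene's strand in the first 50 bases of 9 of 67 common ribosomal protein start sites, 13.4% (7.23 to 23.6), against 18.9% of all. Its share was 14.3% at start sites of genes with a peak and 13.0% at those without. The second start of Rpl34 holds a GGAC from base 6 on, and none of the other starts printed here holds one in its first 50 bases. A match of letters is not a methylated site. Antibodies against m6A also bind m6Am, the methylated adenosine next to the cap, so at transcript starts the marks cannot be told apart.

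Between the genotypes, WT-only peaks outnumbered KO-only peaks in this gene set. Of the WT peaks 11 of 34, 32.4% (19.1 to 49.2), had no same-strand overlap of at least 1 base with any KO peak, while 21.6% of all WT peaks had none. Of the KO peaks 2 of 26, 7.69% (2.14 to 24.1), had no WT partner, while 19.3% of all KO peaks had none. The WT-only share exceeded the KO-only share by 24.7 points (3.56 to 42.4). Each lay within counting error of its own background: the differences were 10.8 points (-2.46 to 27.6) in WT and -11.6 points (-17.2 to 4.81) in KO. Mitochondrial ribosomal proteins had WT-only peaks in 7.37% of cases, 25.0 points (9.99 to 42.2) below the cytosolic share. Their KO-only share was 11.2%, and the cytosolic share minus theirs was -3.53 points (-13.1 to 13.6). The other like groups lay nearer to the cytosolic WT-only share. Initiation factors had WT-only peaks in 18.4% and KO-only peaks in 17.8% of cases, and non-ribosomal TOP mRNAs in 15% and 18.2%. Differences from these groups were not tested.

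At strict FDR the difference rested on 4 genes. Of 22 strict WT peaks 4, 18.2% (7.31 to 38.5), had no KO partner at any FDR, against 4.5% of all strict WT peaks, a difference of 13.7 points (2.81 to 34.0). Of 17 strict KO peaks 0 lacked a WT partner (upper limit 18.4%), against 3.57% of all. The difference between the genotypes at this limit was 18.2 points, with an interval from -3.22 to 38.5 that includes 0.

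The strict WT-only peaks included those of Rpl10a, Rpl28 and Rps24. Rpl10a had a peak over the last 60 bases of its annotated gene (chromosome 17, 28330974 to 28331033) with a fold of 2.40 and a log10 FDR of -21.7. Rpl28 had a 60-base peak (chromosome 7, 4794562 to 4794621, fold 4.17, log10 FDR -6.94) opposite a peak of Ube2s on the other strand, and the part of that overlap in the Rpl28 call was not tested. Rps24, mutated in some human families with Diamond-Blackfan anaemia, held the only peak of the set annotated to a coding exon (chromosome 14, 24493338 to 24493427). It had a fold of 1.63 and a log10 FDR of -10.2. With no values per library, whether 1 library or differing depth of the lists made these calls could not be examined.

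The other 7 WT-only peaks were not strict. They lay at the gene start of Rpl18, in Rps27, in the copies Rpl3l, Rpl22l1 and Rps23rg1, in the second position of Rpsa, and in Rps15a, whose 3' UTR peak had a fold of 3.70 and a log10 FDR of -1.72. The KO-only peaks were those of Rpl13a, given above, and Rps7, whose 3' UTR peak (chromosome 12, minus strand, 28630854 to 28631002) had a fold of 9.92 and a log10 FDR of -1.58. Rpl36al, named in the KO list alone, counts as shared because the WT peak of Dnaaf2 overlies it.

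Many of these weak peaks had folds from a small set of values. In the WT list, 51.3% of genotype-only peaks with folds from 2 to below 10 had a fold that was a whole multiple of 0.926. In the KO list 55.1% were multiples of 0.902. Each step was chosen because it matched the most of these same folds. Averaged over all steps scanned, 1.08% and 1.01% of the folds matched. Over all peaks with folds from 2 to below 10, 28.8% in WT and 30.3% in KO lay on the step. These shares were not split by FDR. Of the member peaks in that fold range, 7 of 21 in WT and 5 of 21 in KO lay on it. Among the WT ones, 7 of 10 that were not strict lay on the step and 0 of 11 strict ones did. In KO these counts were 4 of 9 and 1 of 12, the latter in Rpl29. One such value is 8.12, listed for both Rpl13a and Rpl34 in the KO list. Reads per peak are not given, so the input behind such folds was not examined.

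Where a member peak overlapped a peak of the same gene in the other list, its fold was higher in KO for some genes and in WT for others. There were 23 such pairs in 21 genes, and since pairing requires shared bases, their like position class is no separate result. Overlap was partial in some, as in Rpl18, whose KO peak of 331 bases shared 121 with its WT partner. The median KO-to-WT fold ratio was 1.03, or 0.04 on the log2 scale, with 15 pairs above 0 and 8 below. Over all 23506 pairs the median was -0.03, and 5% to 95% of pairs lay between -1.27 and 1.26. The largest ratio in favour of KO was that of Rpl34 (1.13 on the log2 scale) and the largest in favour of WT that of Rpl37rt (-1.44), neither of them strict.

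The KO fold was at least 1.5 times the WT fold in 5 pairs, namely Rpl34, the 5' UTR pair of Rpl10l, Rpl5, Rpl36 and Rpl30. It was that much lower in 5 pairs, namely Rpl37rt, Rps3, Rps28, Rps4l and Rps19bp1. Over all pairs, 17% were higher in KO and 16.9% lower by that ratio, so the members' counts stand near the background. Those higher in KO all have large-subunit names, as do most of all the member pairs. Of the 5 lower in KO, 4 have small-subunit names. This split was seen after the values were known and was not tested. The small-subunit names include Rps19bp1, which is not a ribosomal protein, and the transcribed pseudogene Rps4l, whose other pair had a ratio of 0.95. Limited to the 17 pairs that were strict in both lists, the median remained 0.04 and the counts were 3 and 3.

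Ribosomal protein peaks combined small FDRs with low folds. Among strict peaks, 7 of 22 WT member peaks, 31.8% (16.4 to 52.7), had a fold below 2, against 4.21% of all strict WT peaks, a difference of 27.6 points (12.1 to 48.5). In KO they were 4 of 17, 23.5% (9.56 to 47.3), against 4.15%, a difference of 19.4 points (5.40 to 43.1). The mitochondrial ribosomal proteins had 5.56% and 4.23%, which lay 26.3 points (8.91 to 47.4) and 19.3 points (3.46 to 43.2) below the cytosolic shares. Other groups of translation genes had higher shares than the mitochondrial one. They were 38.5% (5 of 13) in WT and 35.7% (5 of 14) in KO for the non-ribosomal TOP mRNAs, above the member shares, and 20.4% and 14.8% for the initiation factors. The differences from these groups were not tested, and low folds among strict peaks were not shown to be particular to the cytosolic ribosome. The median fold of strict member peaks was 2.60 in WT and 3.05 in KO, against 6.67 and 6.73 over all strict peaks, and 2.43 and 2.60 for the common genes alone.

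Strict member folds were also low at matched FDR in most ranges. Between FDRs of 1e-05 and 1e-20, 8 WT member peaks had a median fold of 1.71 against 4.83 over all peaks, while the 2 KO member peaks had one of 4.78 against 4.91. Between FDRs of 1e-20 and 1e-100, 7 WT member peaks had a median fold of 2.46 and 7 KO member peaks one of 1.79, against 6.14 and 6.03 over all peaks of that range. At 1e-100 or below, 5 of 7 WT and 7 of 8 KO member peaks lay under the median of all peaks, 10.9 and 10.2. Mitochondrial ribosomal protein peaks also lay mostly under these medians. Between 1e-20 and 1e-100 they did so in 25 of 29 WT and 22 of 25 KO cases, with medians of 4.35 and 3.88. Between 1e-05 and 1e-20 their medians were 3.06 in WT and 2.40 in KO, the latter below the members' 4.78. Strict non-ribosomal TOP mRNA peaks also had low medians, 2.28 in WT and 2.90 in KO. An FDR depends on read depth as well as on the fold, and reads per peak are not given in the lists, so the part of expression level was not tested.

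**Figure D5:**
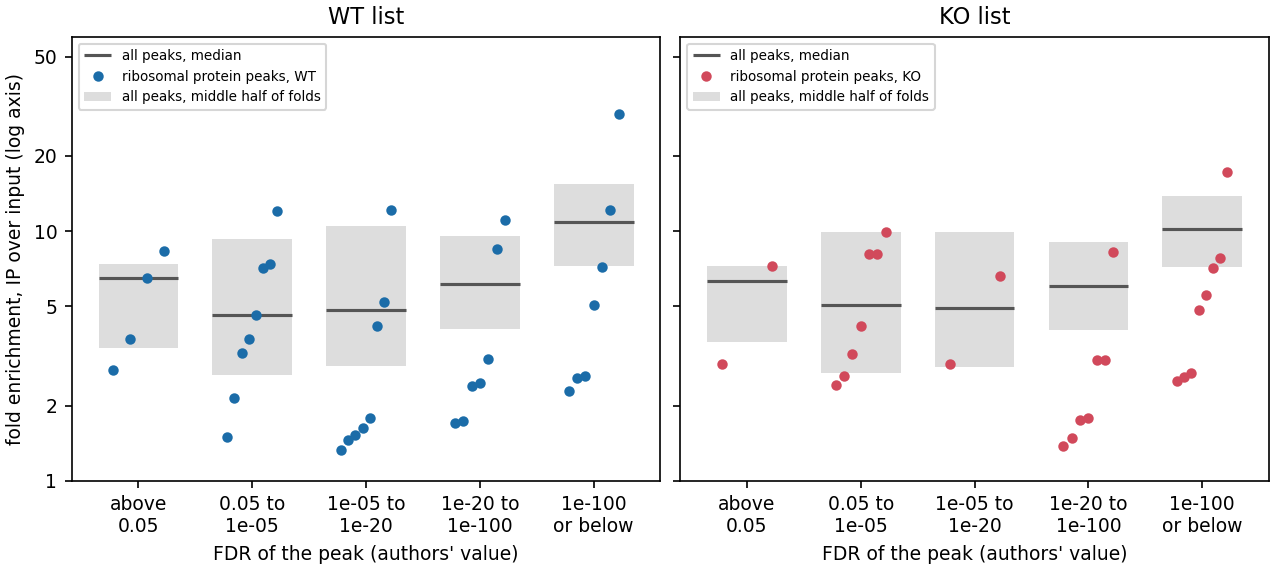
Fold enrichment (log axis) of the member peaks, as points, within ranges of the authors' FDR, for the WT list (left) and the KO list (right). Grey boxes span the 25th to 75th percentile of all peaks in that range and dark lines their median. At FDRs from 1e-20 to 1e-100 most points lie below the grey box, with member medians of 2.46 and 1.79 against 6.14 and 6.03.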

How the data were processed

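MeRIP-seq libraries of mouse testis at postnatal day 18 came as 3 IP and 3 input libraries per genotype, in 4 groups by sample title. Per the labels' protocols, poly(A) RNA was fragmented, pulled down with an m6A antibody and made into dUTP-marked, paired-end libraries. The tools named in the submitters' processing notes are HISAT2, StringTie, HOMER, fastp and FastQC, and the build is GRCm38. Versions, the peak caller, the pooling of replicates and the handling of reads that map to several places are not given in the sources used here. The authors deposited 1 peak list per genotype with, per the file headers, a fold enrichment (ratio of IP over input) and log10 p-values and FDRs, handled here as a score. The deposited span of a peak is a base count that is 1 too long and was recomputed. The highest FDR listed was 0.406 in WT and 0.430 in KO.

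Depth per library is unknown, no replicate error could be computed, and the planned test of IP against input by genotype was not run. Peaks were matched between lists on the same strand by at least 1 base from start to end. For fold pairs, a WT and a KO peak formed a pair when each was the other's partner with the most shared bases, and member pairs also carry 1 gene name. Python 3.11.15, pandas 2.3.3, numpy 2.4.6 and scipy 1.17.1 were used. The code for overlaps and fold steps was checked on simulated data, and the Newcombe interval against a published example. Shares carry Wilson and differences Newcombe 95% intervals. No p-value was computed. Positions count from 1 in GRCm38. RefSeq (GRCm38.p6) gave gene names, biotypes and start sites: 95 symbols follow the name rule, 89 are protein-coding, and 69 of these had a promoter entry, with 81 start sites. The steps of the folds were searched after the data were seen.

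The members, gene lists and comparisons were chosen with earlier results of these data known. All members are named or counted, and some are not reported here by name. Members with values are those with a genotype-only peak, the highest folds or the most peaks, the paralogs and Rps19bp1, and the others with a peak are given more briefly. Alternatives were other FDR limits, overlap rules, a strand rule and subsets of the members.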

Additional observations from a re-analysis of the deposited data

How the results depend on the processing

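Over 16 results and 45 alternatives, 36 values kept their direction and stayed within the tolerance. It was 1.5 times for counts, the 95% interval of the reported value for shares and median folds, 1 SD over pairs for the fold ratio, and the same side of 0 of the interval for differences. Counts inside it still moved: at strict FDR, genes with a WT peak went from 30 to 20 and genes in both lists from 21 to 15. With the FDR limited to 1e-05 or below, member genes with a KO peak numbered 15 in place of 24, and the KO 3' UTR share was 82.4% in place of 65.4%. With both lists at that limit, WT-only peaks numbered 5 and KO-only peaks 0, and against partners of any FDR they numbered 4 and 0. A reciprocal overlap of 50% gave 4 KO-only peaks in place of 2. At strict FDR the share of genes with a peak, ribosomal minus non-ribosomal TOP, was -26.5 points with an interval without 0, and that of copies minus common genes was 4.22 points with an interval that includes 0. The strict limit leaves fewer peaks by construction. The cause of these shifts was otherwise not tested. Chosen after seeing the data were the partner of the same gene name, the removal of peaks over another gene's peak, strict pairs, common genes alone and a fold of at least 2. None of these 5 moved a result by over 1.5 times, and the first gave 3 KO-only peaks in place of 2. No paired analysis was possible because the lists hold no values per library, and leaving out replicates could not be run for the same reason.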

Other observations

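Symbols of ribosomal protein pseudogenes (names with -ps and a number), which the name rule leaves out, carried peaks of their own. The WT list held 28 such peaks in 21 genes and the KO list 20 in 15 genes, 24 genes in either list and 12 in both. They lay almost wholly in noncoding exons, 26 of the WT and 20 of the KO peaks. Their median fold was 7.17 in WT and 7.67 in KO, and 7 and 5 of them had an FDR of 1e-05 or below. Rps19-ps3 (chromosome 4, minus strand, 147821777 to 147822117 in WT) had a fold of 12 in WT and 12.4 in KO. The highest WT fold was 25.9, in Rpl31-ps6, which had 5.61 in the KO list, and the highest KO fold was 15.3, in Rps15a-ps4, which had 6.48 in the WT list. Of the pseudogene peaks 11 in WT and 3 in KO had no partner in the other list, where 21.6% of all WT and 19.3% of all KO peaks had none. Whether the reads under these peaks came from the pseudogene or from its parent gene was not tested.

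The Rps6k kinases, which phosphorylate Rps6 and related targets and share only the start of the name, had 25 WT peaks in 10 genes with a median fold of 6.48 and 22 KO peaks in 8 genes with a median of 6.5. Of these, 7 WT and 2 KO peaks had no partner, beside the same background shares. Fau, which encodes a ribosomal protein fused to a ubiquitin-like protein, and Rack1, a scaffold on the small subunit, had no listed peak.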
